A study of Mus musculus with 30 samples.

Results

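The genes described are those of the proteasome, taken as every gene whose symbol begins with Psma to Psmg followed by a digit. They were found by symbol alone among probe sets that carry exactly 1 gene symbol, on the Affymetrix mouse chips MOE430A and MOE430B. The rule gave 106 probe sets, 85 on MOE430A and 21 on MOE430B, for 49 of the 18193 genes with such a probe set. Of these, 46 genes, with 87 probe sets, passed a filter on signal and were tested among 13882 genes. A further probe set carries 2 symbols, Psme2 and Psme2b, and was left out by the rule.

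The proteasome is the main protease of the cytosol and nucleus, and it degrades proteins that carry ubiquitin chains. Its 20S core is a barrel of alpha rings, which gate the entry, and beta rings, which hold the catalytic sites. The 19S cap binds ubiquitin chains with its lid and base, removes them, and unfolds the substrate with a ring of ATPases. In dividing progenitors of the nervous system, cell cycle proteins and lineage transcription factors are among its substrates.

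The samples were neurospheres, free-floating clusters of neural progenitors grown in a defined medium, from embryonic day 14 mice and kept for 7 days. The PDGF group (6 samples) came from the anterior entopeduncular area, a ventral forebrain region that gives rise to oligodendrocyte progenitors, and was grown with PDGF-AA. The PDGF + NT-3 group (3 samples) came from the same region and was grown with PDGF-AA and neurotrophin-3. The EGF group (6 samples) was taken from both ganglionic eminences, medial and lateral, and was grown with EGF, so region and growth factor differ together in comparisons with it. One of its protocol labels names PDGF-AA, whereas the sample titles and descriptions name EGF. The labels give 100 ng per ml of PDGF-AA for the PDGF group and 100 ng per ul of each factor for the PDGF + NT-3 group. The labels do not say whether samples numbered alike or differently came from separate litters or cultures, so the p-values rest on the spread among the samples at hand, which may be technical.

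Each of the 15 RNA samples was hybridised to both chips. The values are signals, a linear brightness per probe set scaled by the authors so that every array has nearly the same trimmed mean, from 1500.2 to 1500.77 when 2% of the probe sets is trimmed at each end. The array medians ran from 456 to 672 on MOE430A and from 818 to 933 on MOE430B, and no arrays held identical values. The EGF and PDGF samples were washed and stained in 3 shared fluidics runs with 2 samples of each condition, but the PDGF + NT-3 samples shared none of them. Array batch and NT-3 therefore cannot be told apart. The labelled RNA concentration was 171 to 287 ng per ul in the PDGF + NT-3 samples and 100 in the others, so it cannot be told apart from NT-3 either. The 3′ over 5′ signal of the actin control, a sign of RNA or labelling quality, had a log2 median of 3.04 in PDGF, 3.02 in EGF and 3.62 in PDGF + NT-3 on MOE430A. For the Gapdh control the medians were 3.92, 3.75 and 4.21 in the same order on MOE430A. On MOE430B they were 3.86, 3.66 and 4.16, and the PDGF + NT-3 samples, from 4.10 to 4.20, lay above all others. The part of these ratios in the results was not tested. Each of the lists of neural precursor, oligodendrocyte progenitor, astrocyte and neuron markers has 6 genes, and no gene of these lists was below the array median in all samples. The summed signal of the oligodendrocyte progenitor markers was 96182 to 125226 in PDGF, 51048 to 70094 in EGF and 144565 to 172700.0 in PDGF + NT-3. For the neuron markers it was 16618 to 40639, 8243 to 20942 and 5860.1 to 21520.0 in the same order. For the astrocyte markers it was 10272 to 13774, 28969.5 to 45562 and 16621 to 19352. The brightest genes weigh most in such sums. Against PDGF, 3 of the 6 astrocyte markers had log2 differences above 0 with NT-3 and 3 below, and 2 were called higher (limma, adjusted p under 0.05). Of the 6 oligodendrocyte progenitor markers, 3 were called higher with NT-3 and 1, Gpr17, lower, and 5 were called lower in EGF than in PDGF. All 6 neuron markers had log2 differences below 0 against PDGF, both with NT-3 and in EGF. In each of these 2 comparisons 5 of the 6 were called lower, with medians of -1.49 with NT-3 and -1.25 in EGF. The part of these marker differences in the results was not tested, and in bulk samples fewer cells of a type and less RNA per cell cannot be told apart.

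Promoters are shown for 3 genes on which the results turn: Psma3, which differed in all 3 comparisons, Psmb3, with the largest called increase with NT-3, and Psmd11, which went the other way. They are the 250 bases before the start, 5′ to 3′ on the gene's strand, from RefSeq on GRCm38.p6. The positions are chr12:70974373-70974622 for Psma3, chr11:97703184-97703433 for Psmb3 and chr11:80428365-80428614 for Psmd11, all on the plus strand. Capitals mark any match, on either strand, to the antioxidant response element core TGACNNNGC, the CCAAT box, the nuclear respiratory factor 1 motif GCGCANGCG or the interferon response element core GAAANNGAA.
Psma3: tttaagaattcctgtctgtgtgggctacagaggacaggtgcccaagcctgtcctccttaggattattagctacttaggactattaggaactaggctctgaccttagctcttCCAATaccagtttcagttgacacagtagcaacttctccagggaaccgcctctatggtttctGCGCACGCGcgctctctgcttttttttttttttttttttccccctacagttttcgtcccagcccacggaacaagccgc
Psmb3: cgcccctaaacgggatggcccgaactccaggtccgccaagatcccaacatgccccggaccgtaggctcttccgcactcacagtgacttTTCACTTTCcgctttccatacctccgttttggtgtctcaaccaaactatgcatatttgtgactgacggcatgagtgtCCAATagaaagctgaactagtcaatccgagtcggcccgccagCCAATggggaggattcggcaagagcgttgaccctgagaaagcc
Psmd11: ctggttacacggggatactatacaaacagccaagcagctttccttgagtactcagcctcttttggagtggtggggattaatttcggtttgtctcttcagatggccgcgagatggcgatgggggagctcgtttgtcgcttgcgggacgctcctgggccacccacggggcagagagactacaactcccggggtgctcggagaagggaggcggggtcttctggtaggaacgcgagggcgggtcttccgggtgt

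The Psma3 window held a CCAAT box 139 bases and a nuclear respiratory factor 1 motif 78 bases before the start. The Psmb3 window held CCAAT boxes 85 and 43 bases before the start and an interferon core on the other strand at 162 bases, and the Psmd11 window held none of the 4 motifs. In the table, 41 of the 49 genes had a promoter, 44 in all. The nuclear respiratory factor 1 motif was in 13.6% of these 44 windows and in 5.16% of the 32851 windows of all genes. The shares were 11.4% against 10.2% for the antioxidant core, 36.4% against 33.8% for CCAAT and 6.82% against 7.13% for the interferon core. The median GC content was 57.6% for the proteasome windows and 52.4% for all. These are counts of letters with no test, and no binding was measured.

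Across samples, the proteasome genes stood lowest with PDGF and highest with PDGF + NT-3. Each gene's log2 signal was set against its mean over the 15 samples, and the median over the 46 genes was taken in each sample. This median ran from -0.18 to 0.08 in the PDGF samples, from -0.02 to 0.11 in the EGF samples and from 0.065 to 0.16 in the PDGF + NT-3 samples. PDGF replicate 6, at 0.08, was the only PDGF sample above 0, and the 3 ranges overlap. The median over all genes tested ran the other way, from 0.03 to 0.10 in PDGF, from 0.03 to 0.07 in EGF and from -0.06 to -0.02 in PDGF + NT-3. The residual SD within conditions had a median of 0.22 (log2) over the proteasome genes, 0.41 over all genes tested and 0.32 over all genes weighted to the same deciles of signal. Of the 46 proteasome genes, 60.9% were in the top quartile of mean signal. The residual SD was highest for Psmd9 at 0.85, Psmb11 at 0.76, Psmg2 at 0.73 and Psmc4 at 0.65.

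**Figure D1:**
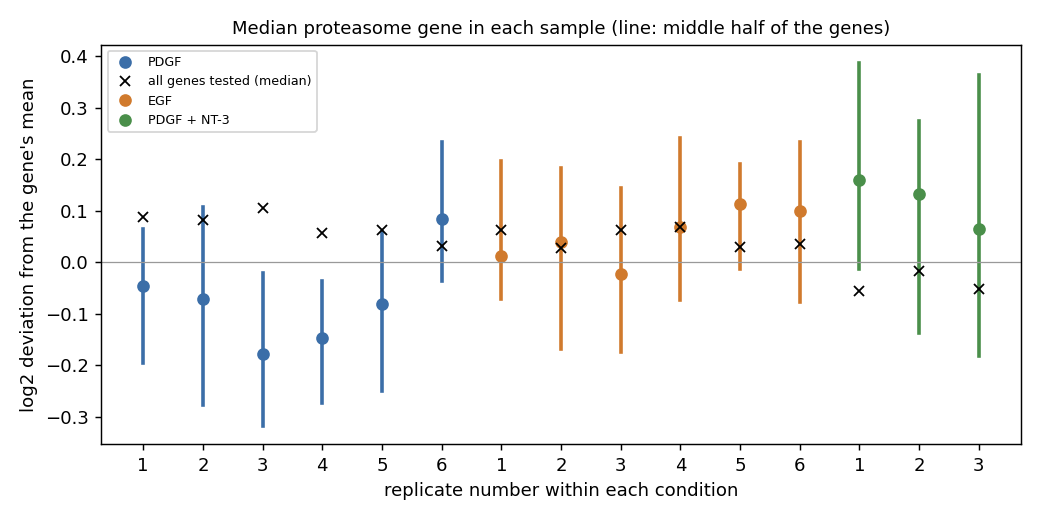
Median log2 deviation (vertical axis) of the 46 proteasome genes from each gene's mean in each of the 15 samples (horizontal axis, replicate number), with a line from the lower to the upper quartile of the genes and a cross for the median of all genes tested. The PDGF + NT-3 medians run from 0.065 to 0.16, and 5 of the 6 PDGF medians are below 0.

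Comparing PDGF + NT-3 with PDGF asks what differs when neurotrophin-3 is added to cells of the same region. Of the 46 genes 8 were higher, 3 were lower and 35 did not pass the test (adjusted p under 0.05). The 8 were 2 alpha and 2 structural beta subunits, 1 ATPase, 1 lid subunit, 1 chaperone of the core and 1 activator, and the 3 were 2 alpha subunits and 1 lid subunit. That is 23.9% called, against a background of 21.2% of all genes tested, so the overall share is near the background. By direction, 7.43% of all genes were called higher and 13.8% lower, whereas the proteasome genes were called mostly higher. The median log2 difference was 0.19 over the 46 genes and -0.13 over all genes tested. The 2 groups did not overlap for 14 of the 46 genes, 11 entirely higher and 3 entirely lower. That is 30.4%, against 19.7% of all genes. The proteasome genes were brighter than all genes tested and less scattered, with a median residual SD of 0.22 against 0.41. Shares called, medians and overlap were not compared with genes of matched signal, here or in the other comparisons. Whether bright genes in general differ from all genes in the same way was therefore not tested. With PDGF + NT-3 replicate 1 left out, 4 genes were called higher and 1 lower, and with PDGF + NT-3 replicate 3 or PDGF replicate 3 left out, 5 and 1. The count of lower genes was also 1 without PDGF replicate 1, 5 or 6, EGF replicate 1 or 5, or PDGF + NT-3 replicate 2. With quantile normalization the split was 7 higher and 4 lower.

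Psma3, the alpha 7 subunit of the core, had the smallest adjusted p of the genes that rose. Its lowest, median and highest signals were 19703, 22696 and 25910.5 in PDGF, and its PDGF + NT-3 signals were 38113, 38532 and 40096. Every PDGF + NT-3 sample lay above every PDGF and EGF sample. The log2 difference was 0.77 ± 0.10 (SE, adjusted p = 7.32e-05), or 1.71-fold. Psma5, the alpha 5 subunit, had PDGF signals of 9629.8, 13843 and 14775 and PDGF + NT-3 signals of 22419.7, 16499.7 and 16856, with a log2 difference of 0.48 ± 0.16 (SE, adjusted p = 0.0374). The groups did not overlap, and PDGF replicate 3 stood well below the other PDGF samples.

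In the beta ring, 2 of the 4 structural subunits rose and none of the 3 constitutive catalytic subunits was called. Psmb3, a structural subunit without a catalytic site, had PDGF signals of 31690.2, 36228 and 41510.3 and PDGF + NT-3 signals of 63247, 51970.3 and 77014. The 3 samples with NT-3 were spread widely, and all were above the PDGF range. The log2 difference was 0.80 ± 0.19 (SE, adjusted p = 0.00746), or 1.74-fold. With quantile normalization Psmb3 had 0.44 and was not called (adjusted p = 0.0574), and its second kept probe set, 1417052_at, had 0.48 ± 0.17 (SE, adjusted p = 0.0528). Psmb4, whose tail helps to lock the core together, had PDGF signals of 9821, 11361 and 16168 and PDGF + NT-3 signals of 17739, 17968 and 16706. PDGF replicate 6 was the highest PDGF sample and came close to the NT-3 samples without reaching them. The log2 difference was 0.57 ± 0.14 (SE, adjusted p = 0.00815). Psmb1 and Psmb2 had log2 differences of -0.27 and 0.26 and did not pass. Over all 35 genes that did not pass, the log2 differences ran from -0.34 to 0.82.

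The catalytic subunits of the constitutive core are Psmb5 (chymotrypsin-like), Psmb6 (caspase-like) and Psmb7 (trypsin-like). Psmb5 signals were 22713 ± 1441 (SD, n = 6) in PDGF, 22568 ± 1572 (SD, n = 6) in EGF and 23425 ± 2429 (SD, n = 3) in PDGF + NT-3. The 3 conditions overlapped, and the log2 difference with NT-3 was 0.04 ± 0.10 (SE, adjusted p = 0.81). Psmb6 was at 21659 ± 5804 (SD, n = 6), 18919 ± 3705 (SD, n = 6) and 20661 ± 2499.9 (SD, n = 3) in the same order, with a log2 difference of -0.03 ± 0.21 (SE, adjusted p = 0.934). Psmb7 was at 21593 ± 2235 (SD, n = 6), 23022 ± 2255 (SD, n = 6) and 19286 ± 509 (SD, n = 3), with a log2 difference of -0.16 ± 0.11 (SE, adjusted p = 0.334). None of the 3 genes was called in any comparison. With quantile normalization Psmb7 was called lower with NT-3, at -0.31 (adjusted p = 0.0345), and higher in EGF than in PDGF + NT-3, at 0.37 (adjusted p = 0.0123).

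The catalytic subunits of the immunoproteasome, which replace the constitutive ones under interferon, are Psmb8, Psmb9 and Psmb10. The first and second did not pass the filter on signal. The 2 probe sets of Psmb8 were below the array median on every array: on MOE430A the means were 89.9 in PDGF, 71.6 in EGF and 66.6 in PDGF + NT-3, and on MOE430B 132, 181 and 154. Psmb9 reached the array median on 1 of 15 arrays, with means of 228, 341 and 351 in the same order. Psmb10, which did pass, was measured at 1115 ± 195 (SD, n = 6), 1536 ± 439 (SD, n = 6) and 902 ± 199 (SD, n = 3), and the conditions overlapped. Its log2 differences were 0.41 ± 0.22 (SE, adjusted p = 0.266) for EGF minus PDGF and 0.71 ± 0.27 (SE, adjusted p = 0.0653) for EGF minus PDGF + NT-3. Psmb11, the subunit of the thymus form, was dim and scattered, from 167 to 696 in PDGF, 204 to 1173 in EGF and 214 to 840.1 in PDGF + NT-3. Of 12 microglia and macrophage markers, cells that carry the immunoproteasome, 6 were under the array median in all samples. Psma8, the alpha subunit of the testis form, was also left out by the filter, at 194, 129 and 162.

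All 6 ATPases of the 19S base had log2 differences above 0 with NT-3, from 0.22 to 0.82, and 1 of them passed. Psmc1 (Rpt2), whose tail helps to open the core's gate, had PDGF signals of 2978, 3470.1 and 4116 and PDGF + NT-3 signals of 5107, 4733 and 4499. Its groups did not overlap, and the log2 difference was 0.45 ± 0.13 (SE, adjusted p = 0.0174). Psmc4 (Rpt3) had the largest difference of the 6, 0.82 ± 0.41 (SE, adjusted p = 0.159), but its PDGF signals ran from 1020.3 to 4541 and it did not pass. Its other kept probe set, 1416291_at, was less scattered. There the PDGF signals ran from 1677 to 2498, below the PDGF + NT-3 signals of 2639, 3231 and 2704. The 3 other subunits of the base, the scaffolds Psmd1 and Psmd2 and the ubiquitin receptor Psmd4, had log2 differences of 0.37, 0.09 and 0.17 and did not pass.

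The lid, which binds and deubiquitinates substrates, held 1 gene that rose and 1 that fell among 8. Psmd3 (Rpn3) had PDGF signals of 5557, 6927 and 7324 and PDGF + NT-3 signals of 10186, 8024 and 9263, all above the PDGF range, with a log2 difference of 0.44 ± 0.14 (SE, adjusted p = 0.0291). Psmd11 (Rpn6), a clamp between lid and core, fell by the most among the genes called lower. Its PDGF signals were 23736, 28206 and 30557 and its PDGF + NT-3 signals were 18435, 17621 and 23698. The NT-3 samples lay below every PDGF and EGF sample, although the highest of them was close to the lowest PDGF sample. The log2 difference was -0.49 ± 0.12 (SE, adjusted p = 0.00847), 1.40-fold lower. Psmd14 (Rpn11), the deubiquitinase of the lid, had a log2 difference of -0.05 ± 0.11 (SE, adjusted p = 0.803).

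The other genes called lower are alpha subunits. Psma4 had PDGF signals of 4529, 4822 and 5532 and PDGF + NT-3 signals of 4009, 3396 and 4146, with a log2 difference of -0.35 ± 0.12 (SE, adjusted p = 0.042). Psma6 had PDGF signals of 30434, 32985 and 34615 and PDGF + NT-3 signals of 26836, 27205 and 28665, with a log2 difference of -0.25 ± 0.08 (SE, adjusted p = 0.043). The groups did not overlap for either gene. Both calls were close to the threshold, and with median centring of each array, which moved the median of the 46 genes from 0.19 to 0.33, no gene was called lower and 9 were called higher.

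Among the chaperones and activators, Psmg3, Psme4 and no others were called. Psmg3, a chaperone that helps to build the alpha ring, had PDGF signals of 1541, 1978 and 2139 and PDGF + NT-3 signals of 3116, 3414 and 3224, above the range of PDGF and EGF samples. The log2 difference was 0.77 ± 0.16 (SE, adjusted p = 0.00345), or 1.70-fold. Psme4 (PA200), a nuclear activator, had PDGF signals of 1167, 1496 and 1687 and PDGF + NT-3 signals of 2769, 1847 and 2096, with a log2 difference of 0.58 ± 0.19 (SE, adjusted p = 0.0384). Psme3 (PA28 gamma), another nuclear activator, was at 1312 ± 289.5 (SD, n = 6) in PDGF and 1966 ± 206 (SD, n = 3) with NT-3, with a log2 difference of 0.59 ± 0.21 (SE, adjusted p = 0.0566). It did not pass here, but it was called with median centring (adjusted p = 0.0464) and with quantile normalization (adjusted p = 0.0412). Psme1 (PA28 alpha), an activator induced by interferon, had a log2 difference of 0.05 ± 0.22 (SE, adjusted p = 0.9). Its partner Psme2 (PA28 beta) is on the probe set with 2 symbols and was not tested.

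The calls with NT-3 differed in how often they were lost over 26 other settings, 15 of which left out 1 sample. Not every setting could move every gene. Psmg3, Psmc1, Psmd3 and Psma4 each have 1 kept probe set, so averaging probe sets could not change their log2 differences. Leaving out an EGF sample changed the spread but not these log2 differences. Psmg3 was lost in none, and Psma3, Psmb3, Psmb4 and Psmc1 were each lost in 1. Psmd11 was lost in 2, Psmd3 in 4, Psma5 in 8, Psme4 in 9, Psma4 in 16 and Psma6 in 21. For Psme4 the adjusted p reached 0.191, and for Psma5 0.198. Psma5 had 0.34 with quantile normalization (adjusted p = 0.12), and Psma3 had 0.58 with the mean of its probe sets (adjusted p = 0.162).

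**Figure D2:**
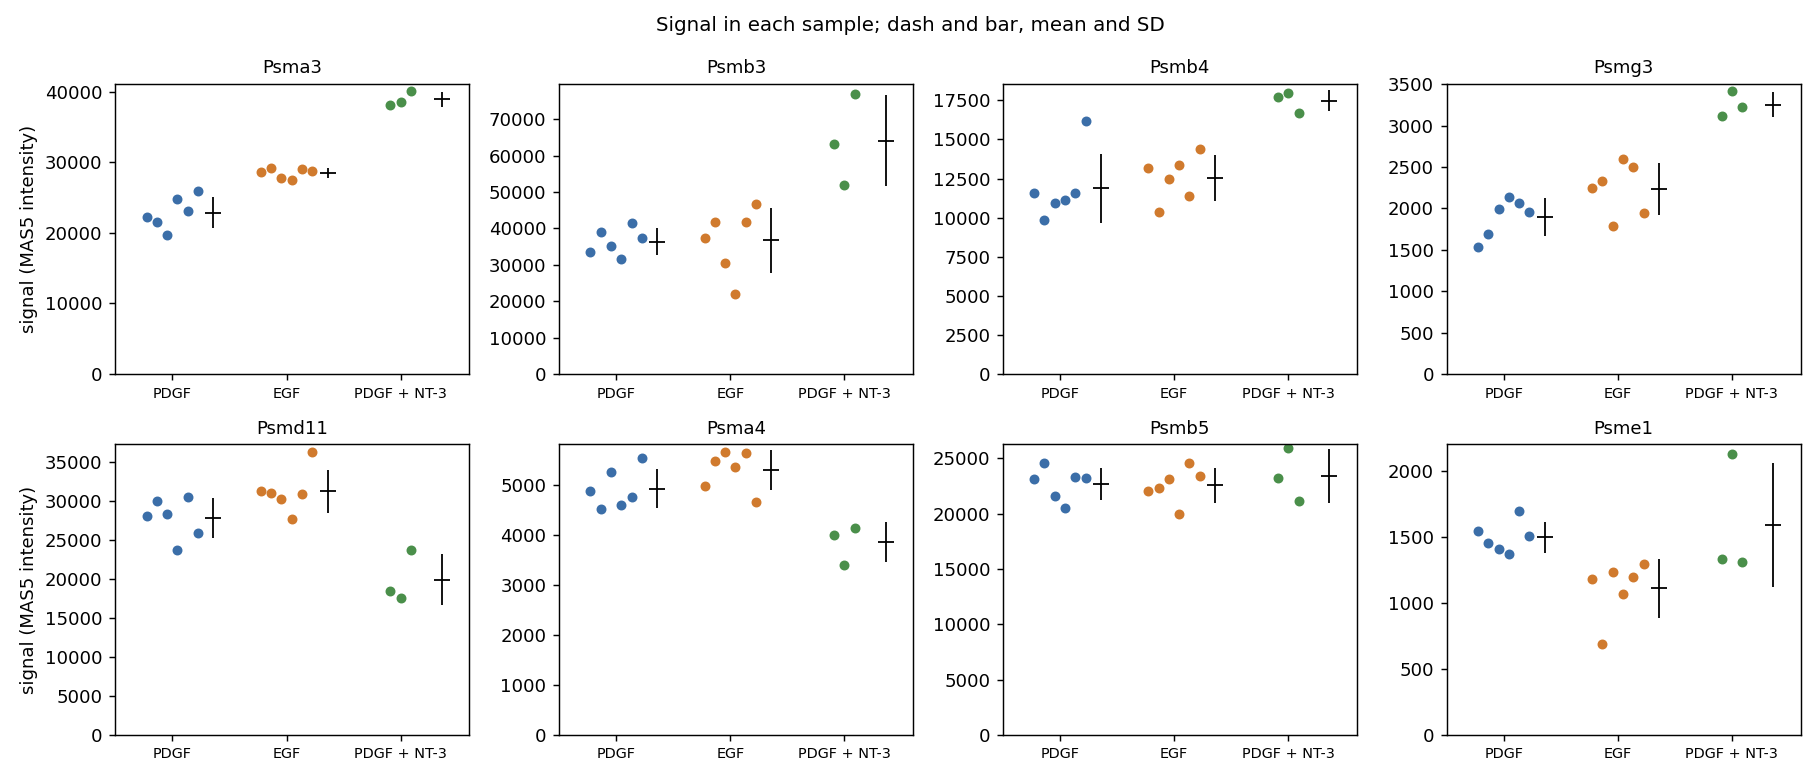
Signal intensity (vertical axis, from 0) of 8 proteasome genes in every sample of PDGF, EGF and PDGF + NT-3, with a dash and bar for the mean and SD. The PDGF + NT-3 samples lie above all others for Psma3, Psmb3, Psmb4 and Psmg3 and below all others for Psmd11 and Psma4, and the conditions overlap for Psmb5.

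Comparing EGF with PDGF asks how progenitors of the ganglionic eminences in EGF differ from those of the entopeduncular area in PDGF. Few of the proteasome genes differed: 1 of 46 was called higher and none lower by limma, or 2.17%, against a background of 13% of all genes (6.5% higher and 6.52% lower). At an unadjusted p under 0.05, 8 of the genes were higher and 1 lower, against 24.2% of all genes in either direction. The median log2 difference was 0.12 over the 46 genes, or 0.20 with each chip centred on the probe sets of both chips, and -0.04 over all genes, and 34 of the 46 were above 0 (46% of all genes). Without PDGF replicate 2 or 6, 2 genes were called higher. In the 3 fluidics runs taken alone, the median over the 46 genes was 0.10, 0.16 and 0.08.

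The gene called was Psma3. Its EGF signals ran from 27529 to 29215, all above the PDGF range of 19703 to 25910.5. The means were 28487 ± 697 (SD, n = 6) and 22874 ± 2246 (SD, n = 6), and the log2 difference was 0.32 ± 0.08 (SE, adjusted p = 0.01), or 1.25-fold. With median centring it was 0.36 and did not pass (adjusted p = 0.0884). With the mean of its 2 kept probe sets it was 0.04 (adjusted p = 0.955), since the dim probe set on MOE430B had -0.24 ± 0.47 (SE, adjusted p = 0.842). These were the 2 of 27 other settings in which the call was lost. The same gene was higher again with NT-3, so its 3 conditions did not overlap.

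The 8 lid genes and the 7 tested alpha genes all had log2 differences above 0, from 0.03 to 0.38 and from 0.06 to 0.32, and 1 of these 15 passed. The next closest to the threshold were the lid gene Psmd12 (Rpn5), at 0.38 ± 0.13 (SE, adjusted p = 0.0695), and the cap chaperone Psmd5, at 0.38 ± 0.13 (SE, adjusted p = 0.0696). EGF and PDGF samples did not overlap for 6.52% of the 46 genes, 2 entirely higher and 1 entirely lower, against 8.62% of all genes. The 2 higher were Psma3 and Psma6, the latter at 0.17 ± 0.07 (SE, adjusted p = 0.13). Psme1 was the only one of the 46 whose EGF samples all lay below the PDGF samples. With EGF replicate 2 far below the rest, they ran from 686 to 1296 against 1371 to 1699.9. Its log2 difference was -0.44 ± 0.18 (SE, adjusted p = 0.144) and did not pass. Psme3 had 0.42 ± 0.17 (SE, adjusted p = 0.133) and Psme4 -0.08 ± 0.16 (SE, adjusted p = 0.84).

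The constitutive catalytic subunits had log2 differences of -0.01 ± 0.08 (SE, adjusted p = 0.967) for Psmb5, -0.17 ± 0.17 (SE, adjusted p = 0.603) for Psmb6 and 0.09 ± 0.09 (SE, adjusted p = 0.611) for Psmb7. None passed, and the EGF and PDGF samples overlapped for each. Psmb11 had 0.60 ± 0.42 (SE, adjusted p = 0.439), with EGF signals from 204 to 1173.

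Between EGF and PDGF + NT-3, 4 of 46 genes were called higher in EGF and 7 lower, again 23.9%, against a background of 22.5% (14.1% higher and 8.35% lower). The median log2 difference was -0.15 over the 46 genes and 0.11 over all genes. Over the 46 genes it was -0.08 with quantile normalization, -0.10 with the mean of kept probe sets and -0.24 with median centring. This comparison shares its PDGF + NT-3 samples with the first one and adds region to the difference in growth factor. Array batch differs between the groups in both comparisons. The 2 groups did not overlap for 16 of the 46 genes, 34.8%, against 21.7% of all genes. Without PDGF + NT-3 replicate 1, 3 genes were called lower, and without replicate 2 or 3 of that group, 4.

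Lower in EGF were Psmb3, at -0.83 ± 0.19 (SE, adjusted p = 0.00528), Psme4, at -0.65 ± 0.19 (SE, adjusted p = 0.0197), and Psmg3, at -0.54 ± 0.16 (SE, adjusted p = 0.0233). For each of these the EGF and PDGF + NT-3 samples did not overlap. Psmb4 had -0.49 ± 0.14 (SE, adjusted p = 0.0187) and Psma3 -0.45 ± 0.10 (SE, adjusted p = 0.00295), again without overlap. Psmd3 had -0.41 ± 0.14 (SE, adjusted p = 0.0392), with EGF signals from 5615 to 8653 that overlapped the NT-3 samples. Psmc4 had the largest difference, -1.18 ± 0.41 (SE, adjusted p = 0.0458), but its EGF signals, 969, 1484 and 3613 at lowest, median and highest, overlapped the PDGF + NT-3 signals of 4012, 2967 and 4693. On its other kept probe set, 1416291_at, EGF signals ran from 1757 to 2382, below the PDGF + NT-3 signals of 2639, 3231 and 2704. Over 26 other settings the Psmc4 call was lost in 14 (adjusted p up to 0.144) and the Psmd3 call in 11 (up to 0.162). Psmb4 was lost in 4, Psme4 and Psmg3 each in 3, Psma3 in 2 and Psmb3 in 0.

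Higher in EGF were Psmd11, at 0.66 ± 0.12 (SE, adjusted p = 0.000814), Psma4, at 0.46 ± 0.12 (SE, adjusted p = 0.0101), and Psma6, at 0.42 ± 0.08 (SE, adjusted p = 0.00174). The fourth was Psmc3ip, which is no proteasome subunit and whose MOE430B probe set was not higher in EGF than in PDGF + NT-3. Over the 26 other settings Psmc3ip was lost in 11, Psma4 and Psma6 each in 2 and Psmd11 in 1. The constitutive catalytic subunits were at -0.05 (Psmb5), -0.14 (Psmb6) and 0.25 (Psmb7), with adjusted p of 0.755, 0.656 and 0.115. With median centring 1 gene was called higher and 6 lower, and with quantile normalization 6 and 5.

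**Figure D3:**
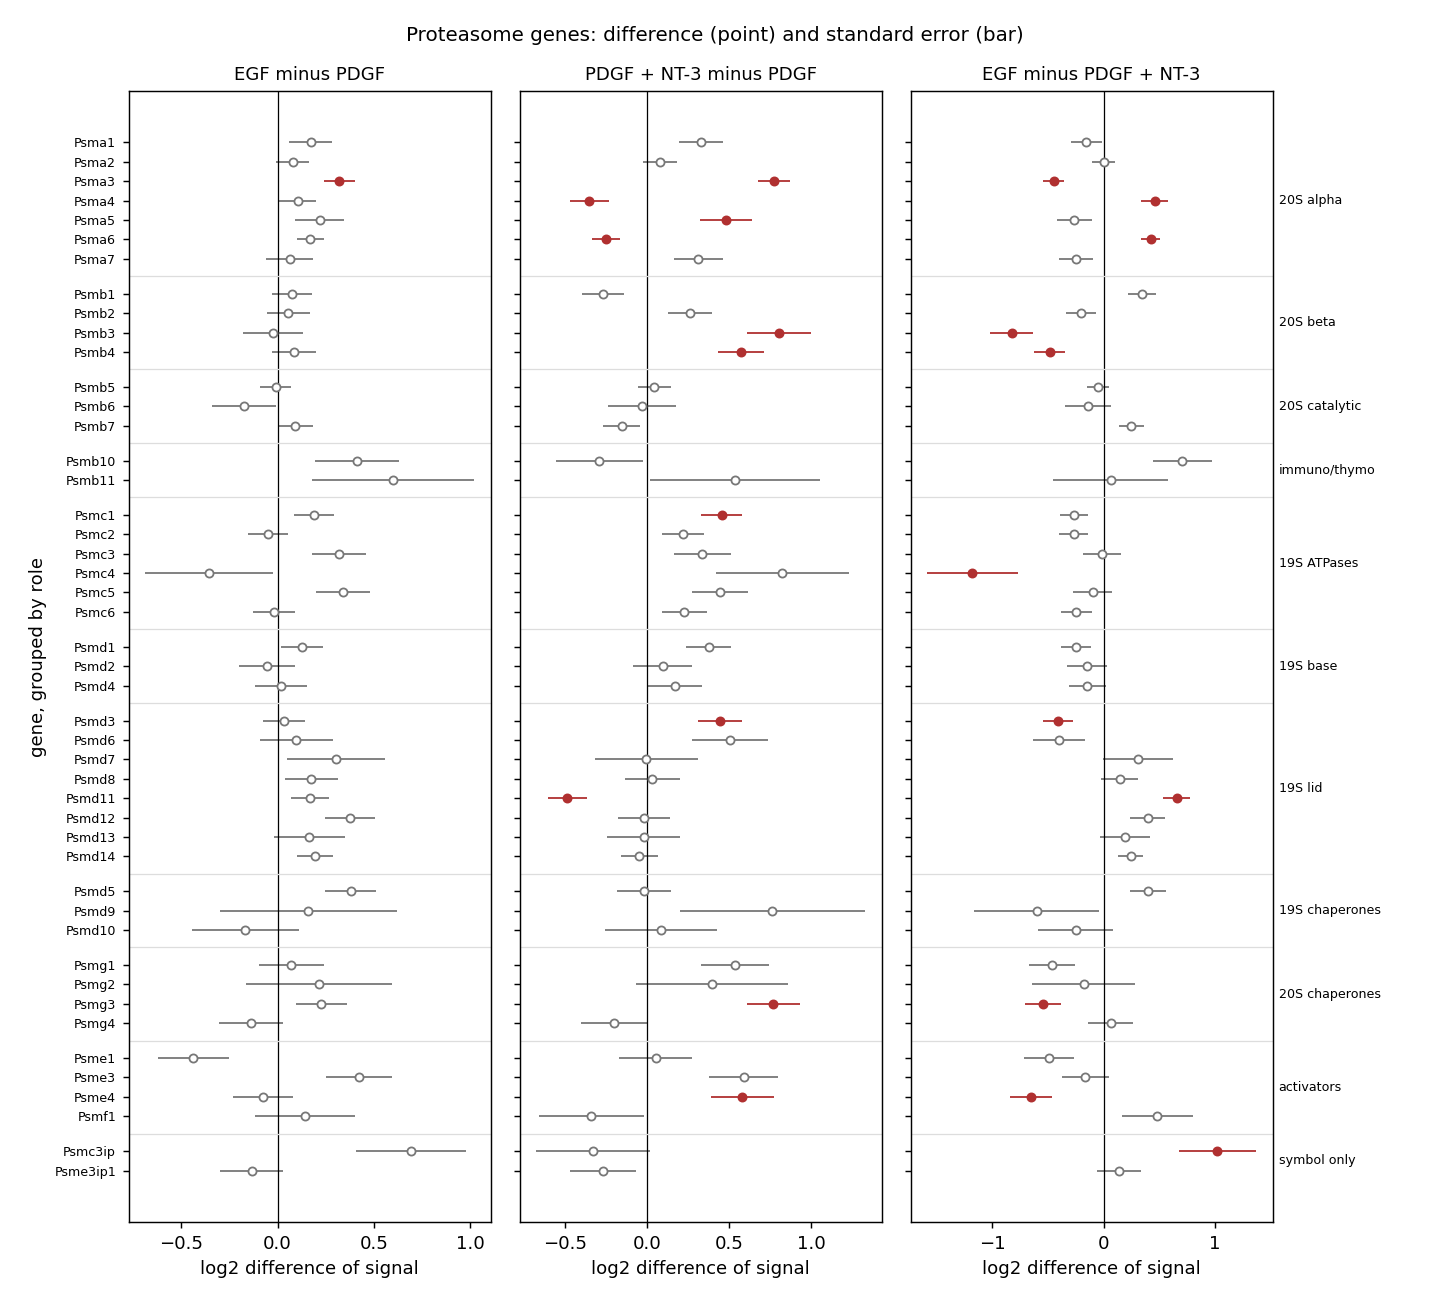
Log2 difference of signal (horizontal axes) with its standard error for the 46 proteasome genes tested, grouped by role (vertical axis), in the 3 comparisons, with filled red points for genes called at an adjusted p under 0.05. The EGF minus PDGF panel holds 1 filled point, Psma3, and the PDGF + NT-3 minus PDGF panel holds 8 to the right of 0 and 3 to the left.

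Several genes have more than 1 kept probe set, 24 of the 46, and these did not always tell the same story. When every kept probe set was tested as its own row, 10.7% of all rows were called for EGF minus PDGF, 19.1% for PDGF + NT-3 minus PDGF and 20.2% for EGF minus PDGF + NT-3. Of the 87 proteasome rows, 4, 15 and 9 were called higher and 0, 3 and 10 lower in these comparisons. For PDGF + NT-3 minus PDGF, the probe sets of 14 of the 24 genes all had 1 sign.

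The clearest disagreement was in Psma6. The brighter probe set 1437144_x_at, read above, had a log2 difference with NT-3 of -0.25 ± 0.09 (SE, adjusted p = 0.0507) in this fit. The probe set 1416506_at had 0.44 ± 0.13 (SE, adjusted p = 0.0263), with PDGF + NT-3 signals of 9678, 9759 and 10044 against PDGF signals from 6729 to 9247. The suffix _x marks, in Affymetrix naming, a probe set with probes that also match other transcripts. The direction for Psma6 therefore depends on the probe set.

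For Psmd11, 2 of 6 kept probe sets were called lower with NT-3, 1437080_s_at at -0.49 ± 0.12 (SE, adjusted p = 0.00998) and 1456059_at at -0.99 ± 0.18 (SE, adjusted p = 0.00143). The probe set 1440253_at had -0.39 ± 0.17 (SE, adjusted p = 0.132). The probe set 1429370_a_at had the other sign, 0.71 ± 0.31 (SE, adjusted p = 0.114). Psma3 was called on 1 of its 2 kept probe sets, and the dim one, on MOE430B, had 0.40 ± 0.58 (SE, adjusted p = 0.676) with NT-3. Psmb4 was called on 1 of 2, and the second, 1438984_x_at, had 0.16 ± 0.20 (SE, adjusted p = 0.629).

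Other genes were called only on a probe set that the gene-level rule did not read. The alpha gene Psma7 had 0.80 ± 0.17 (SE, adjusted p = 0.00373) with NT-3 on 1423568_at. The lid gene Psmd6 (Rpn7) had 0.78 ± 0.14 (SE, adjusted p = 0.00121) on 1423697_at. The lid gene Psmd13 (Rpn9) had -1.25 ± 0.38 (SE, adjusted p = 0.0314) on 1447843_at of MOE430B, against -0.02 on the probe set read above. Its PDGF + NT-3 signals on 1447843_at were 2004, 1514 and 316, against 1687 to 3720 in PDGF. PDGF + NT-3 replicate 3 stood far below the others, and replicate 1 lay within the PDGF range.

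The probe sets of 3 proteasome genes are on both chips, so the same RNA was measured with the same probes on each. For Psma1, an alpha subunit, the log2 difference with NT-3 was 0.33 ± 0.14 (SE, adjusted p = 0.108) on MOE430A and 0.94 ± 0.17 (SE, adjusted p = 0.00155) on MOE430B. For EGF minus PDGF it was 0.17 ± 0.11 (SE, adjusted p = 0.425) and 0.55 ± 0.14 (SE, adjusted p = 0.0158). For the ATPase Psmc5 (Rpt6) the NT-3 values were 0.44 ± 0.17 (SE, adjusted p = 0.0837) and 0.64 ± 0.20 (SE, adjusted p = 0.0343), and for Psmb5 0.04 ± 0.10 (SE, adjusted p = 0.816) and 0.30 ± 0.17 (SE, adjusted p = 0.22). The values on MOE430B were above those on MOE430A for all 3. Over the 100 probe sets on both chips, MOE430B minus MOE430A had a median of 0.19 (log2) for PDGF + NT-3 minus PDGF, above 0 for 80, and of 0.20 for EGF minus PDGF, above 0 for 91. The median log2 differences of the 46 genes given above were 0.193 for PDGF + NT-3 minus PDGF and 0.12 for EGF minus PDGF.

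**Figure D4:**
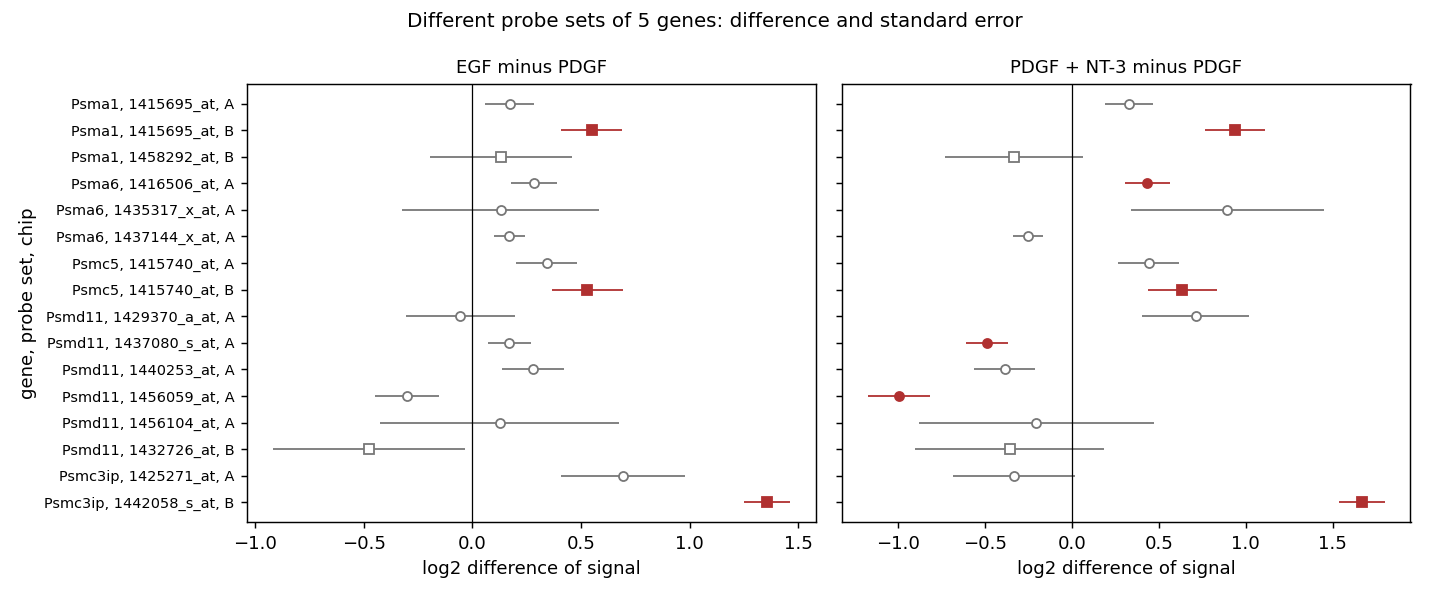
Log2 difference of signal (horizontal axes) with its standard error for each kept probe set of 5 genes (vertical axis), for EGF minus PDGF and PDGF + NT-3 minus PDGF, with circles for MOE430A, squares for MOE430B and filled red points for adjusted p under 0.05. For Psma1, Psma6, Psmd11 and Psmc3ip, probe sets of the same gene lie on opposite sides of 0 with NT-3.

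The symbol rule also took in Psmc3ip and Psme3ip1, which are no part of the proteasome. Psmc3ip (Hop2) works in meiotic recombination, and Psme3ip1 is named for its binding to Psme3. On MOE430A Psmc3ip was at 1799 ± 946 (SD, n = 6) in PDGF, 2695 ± 575 (SD, n = 6) in EGF and 1345 ± 564 (SD, n = 3) in PDGF + NT-3, and it was higher in EGF than in PDGF + NT-3, at 1.02 ± 0.35 (SE, adjusted p = 0.0429). On MOE430B its probe set 1442058_s_at was higher with EGF, at 1.35 ± 0.11 (SE, adjusted p = 2.08e-07), and with NT-3, at 1.67 ± 0.13 (SE, adjusted p = 8.11e-07), than with PDGF. Signals of that probe set were 8318 to 8944 in EGF and 11671, 8589 and 12207 in PDGF + NT-3, so it was not higher in EGF than in PDGF + NT-3. Without these 2 genes, 8 of 44 were called higher and 3 lower with NT-3, and 3 higher and 7 lower in EGF than in PDGF + NT-3. Psme3ip1 was not called in any comparison.

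Around the proteasome, the list of bound and maturation factors held 3 genes called with NT-3: 1 of 10 tested rose and 2 fell. Zfand5, a protein that stimulates the proteasome, had PDGF signals of 6144, 8316 and 8877 and a mean of 2891 ± 523 (SD, n = 3) with NT-3. It fell without overlap, with a log2 difference of -1.47 ± 0.17 (SE, adjusted p = 3.71e-05), 2.77-fold lower. Usp14, a deubiquitinase bound to the cap, was at 5821 ± 1103 (SD, n = 6) in PDGF, 6195 ± 655 (SD, n = 6) in EGF and 2684 ± 698 (SD, n = 3) with NT-3, with a log2 difference of -1.11 ± 0.18 (SE, adjusted p = 0.000588), 2.17-fold lower. Txnl1, a thioredoxin-like protein of the cap, was at 8711 ± 1154 (SD, n = 6) in PDGF and 15696 ± 1828 (SD, n = 3) with NT-3, and rose by 0.85 ± 0.14 (SE, adjusted p = 0.000625). Zfand5 was also lower in EGF than in PDGF, at -0.46 ± 0.14 (SE, adjusted p = 0.032). The maturation factor Pomp had -0.42 ± 0.15 (SE, adjusted p = 0.0543) with NT-3 and did not pass. In EGF against PDGF + NT-3, 2 of the 10 were higher, Zfand5 at 1.004 ± 0.17 (SE, adjusted p = 0.000435) and Usp14 at 1.22 ± 0.18 (SE, adjusted p = 0.000151), and Txnl1 was lower at -0.66 ± 0.14 (SE, adjusted p = 0.00242).

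Of 7 tested genes for the transcription of proteasome genes, 2 rose and 1 fell in EGF relative to PDGF. Nfe2l2 (NRF2), a factor of the oxidative stress response, had PDGF signals of 429, 625.1 and 824 and EGF signals of 2159, 2524 and 2973. The groups did not overlap, and the log2 difference was 1.99 ± 0.19 (SE, adjusted p = 1.79e-06), or 3.97-fold. Ngly1, which activates the related factor Nfe2l1 by removing its sugars, rose by 0.77 ± 0.15 (SE, adjusted p = 0.00203), and Maff, a small partner factor, had -1.82 ± 0.46 (SE, adjusted p = 0.0128) at low signals of 122 ± 88.3 (SD, n = 6) in EGF. Nfe2l1, the factor known in mammals to raise proteasome genes when the proteasome is inhibited, had -0.03 ± 0.18 (SE, adjusted p = 0.947) and, with NT-3, -0.29 ± 0.22 (SE, adjusted p = 0.366). Keap1, which keeps NRF2 low, fell with NT-3, at -0.70 ± 0.21 (SE, adjusted p = 0.0272). Against PDGF + NT-3, Nfe2l2 (2.03, adjusted p = 1.48e-05) and Keap1 (0.77, adjusted p = 0.0155) were higher in EGF.

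Of 6 tested shuttle receptors, which carry ubiquitinated proteins, Ubqln4 was lower in EGF than in PDGF, at -0.47 ± 0.14 (SE, adjusted p = 0.037), and lower with NT-3, at -0.57 ± 0.18 (SE, adjusted p = 0.0295). The autophagy receptor Sqstm1 (p62) also fell with NT-3, at -0.43 ± 0.15 (SE, adjusted p = 0.0433), and none of the 6 was called by limma between EGF and PDGF + NT-3, where at an unadjusted p under 0.05 0 were higher and 0 lower. The share of all genes under that unadjusted p was 35.6% there. Of 6 genes for ubiquitin and its E1 enzymes, 1 could be tested: Uba6 had -0.72 ± 0.22 (SE, adjusted p = 0.0267) with NT-3 and 0.78 ± 0.22 (SE, adjusted p = 0.0166) in EGF against PDGF + NT-3. Of 10 genes of the p97 unfoldase and its cofactors, none was called for EGF minus PDGF by limma, and at an unadjusted p under 0.05 0 were higher and 1 lower, against 24.2% of all genes in either direction. With NT-3, the membrane protein Derl1 of the endoplasmic reticulum fell by 0.66 ± 0.11 (SE, adjusted p = 0.00079) on the log2 scale and the cofactor Ubxn1 rose by 0.71 ± 0.18 (SE, adjusted p = 0.00913). The unfoldase itself, Vcp, had -0.02 ± 0.13 (SE, adjusted p = 0.931).

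Of 8 antigen presentation genes, which use the products of the immunoproteasome, 5 were tested. Tap1, a peptide transporter, was at 693 ± 173 (SD, n = 6) in PDGF, 604 ± 153 (SD, n = 6) in EGF and 215 ± 96.9 (SD, n = 3) with NT-3, and fell with NT-3, at -1.51 ± 0.34 (SE, adjusted p = 0.00485). Tapbp, a chaperone of peptide loading, was higher in EGF than in PDGF, at 1.24 ± 0.38 (SE, adjusted p = 0.0394). Between EGF and PDGF + NT-3, Tap1 (1.32, adjusted p = 0.00906) and the light chain B2m (0.66, adjusted p = 0.00919) were higher in EGF. The summed signal of the 12 microglia and macrophage markers was 1626 to 5648 in PDGF, 2544 to 3838 in EGF and 2376 to 2518 in PDGF + NT-3. Of the 12 markers 3 passed the filter, and all 3 had log2 differences below 0 with NT-3. Csf1r, a receptor of microglia and macrophages, was at 1142 ± 272 (SD, n = 6) in PDGF, 1148 ± 208 (SD, n = 6) in EGF and 491 ± 279.6 (SD, n = 3) in PDGF + NT-3. It fell with NT-3, at -1.23 ± 0.32 (SE, adjusted p = 0.0115), and was higher in EGF than in PDGF + NT-3, at 1.25 ± 0.32 (SE, adjusted p = 0.00873), as Tap1 was. Ptprc and C1qb had -0.61 and -0.40 with NT-3 (adjusted p = 0.502 and 0.53). The part of these markers in the differences was not tested.

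**Figure D5:**
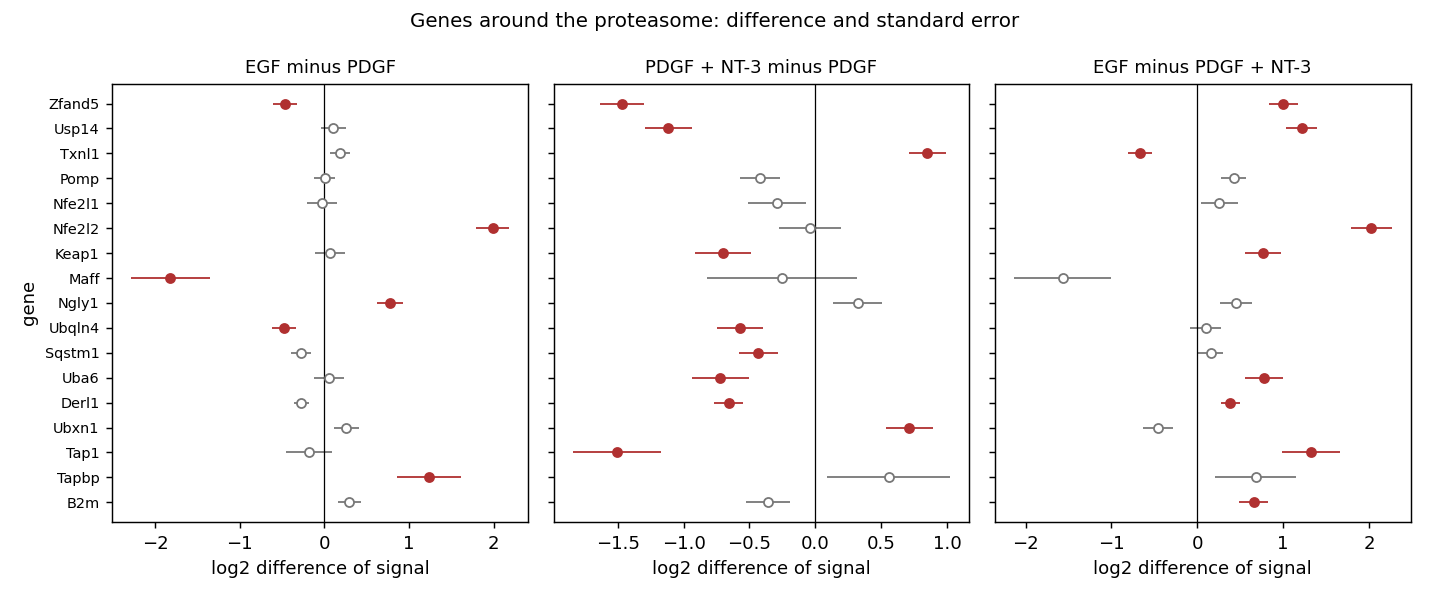
Log2 difference of signal (horizontal axes) with its standard error for 17 genes that act with the proteasome (vertical axis) in the 3 comparisons, with filled red points for adjusted p under 0.05. Nfe2l2 stands near 2 in both comparisons with EGF, and Zfand5 and Usp14 lie below -1 with NT-3.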

How the data were processed

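Total RNA of 15 neurosphere samples was hybridised to 2 chips each, giving 30 arrays. The deposited values are linear signal intensities per probe set, made by the authors with MAS5 per the submitters' processing notes, which give no version. The arrays' number limits the precision, and no read depth applies. The run records deposited with the arrays served only to find shared fluidics runs.

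The genes and lists were chosen with earlier results of these data known. A probe set was kept if its signal reached the array median on at least 3 of the 15 arrays, which left 13882 genes. Each gene was read from its kept probe set with the highest mean log2 signal, on MOE430A where it had one. The tested value was log2(signal + pseudocount), with the 10th percentile of each chip as pseudocount (52.0 on MOE430A, 115 on MOE430B), so fold changes are on that scale and understate the change of dim genes. A linear model over all 15 samples was fitted in limma (version 3.58.1, under R 4.3.3) with moderated variances and a trend, at 12 residual degrees of freedom, and p-values were adjusted by Benjamini-Hochberg over the 13882 genes, with a threshold of 0.05. Every adjusted p printed is from limma. The scripts were tested on simulated data.

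Genes named in full are the called ones, the catalytic subunits, the activators and up to 3 genes of each pathway list with the smallest adjusted p. Alternatives changed the pseudocount, filter, normalization, choice of probe set, samples fitted and weights. Same-numbered samples correlated between -0.04 and 0.11 in their deviations from the group means, and the numbers were not taken as pairs in the main fit. For EGF minus PDGF alone the range was 0.02 to 0.11, and 5 of the 6 pairs correlated best with their own number. These correlations do not settle whether those samples were paired, and a fit with the replicate number as a block is given below.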

Additional observations from a re-analysis of the deposited data

Results flagged for a closer look

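For 19 named genes, the 6 PDGF samples and the 6 EGF samples were searched for a highest or lowest sample standing apart, that is, one whose gap to the nearest sample exceeds 0.625 of the group's range. Of these 38 groups of values 3 held one, and chance flags about 1 in 20. Psma5 in PDGF replicate 3 had a signal of 9629.81, the lowest, with the nearest at 13184 (gap 0.734 of the range). Psmb4 in PDGF replicate 6 had 16167.6, the highest, with the nearest at 11587.4 (gap 0.668). Psme1 in EGF replicate 2 had 686.378, the lowest, with the nearest at 1071.79 (gap 0.698).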

How the results depend on the processing

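The median over the 46 proteasome genes kept its direction in each comparison under all alternatives run, whereas the calls did not: of 23 calls, 2 held under every setting, Psmg3 for PDGF + NT-3 minus PDGF and Psmb3 for EGF minus PDGF + NT-3. Psmg3 has 1 kept probe set, so averaging probe sets could not change its log2 difference. Leaving out a sample of the group not compared left every log2 difference as it was. For EGF minus PDGF, the genes called higher (1) became 3 with a filter at the 75th percentile, 3 with quantile normalization, 3 with array weights, 2 with the mean of kept probe sets (Psma3 not among them), 4 when every kept probe set was a row, 0 with median centring, and 1 to 2 with 1 sample left out. For PDGF + NT-3 minus PDGF, the genes called higher (8) became 14 with every probe set and 5 with array weights, and 4 to 11 with 1 sample left out. Those called lower (3) became 0 with median centring and 1 with the larger pseudocount, no filter, the mean of probe sets, only the groups compared or array weights, and 1 to 3 with 1 sample left out. For EGF minus PDGF + NT-3, the genes called higher (4) became 1 with median centring, 1 with the mean of probe sets and 7 with every probe set, and 3 to 5 with 1 sample left out. Those called lower (7) became 3 with array weights, and 3 to 7 with 1 sample left out. With the mean of its probe sets, Psma6 reversed to 0.36 (limma, adjusted p = 0.221) for PDGF + NT-3 minus PDGF and -0.16 (adjusted p = 0.602) for EGF minus PDGF + NT-3. Centring on the probe sets of both chips was chosen after seeing the data and gave 4 higher for EGF minus PDGF and 1 lower for PDGF + NT-3 minus PDGF. With the replicate number as a block, 1 gene was called higher and 0 lower for EGF minus PDGF, 11 and 1 for PDGF + NT-3 minus PDGF, and 4 and 5 for EGF minus PDGF + NT-3; for EGF minus PDGF, 5 of the 6 pairs correlated best with their own number. Apart from Psma6, whose probe sets differ, the cause of these changes was not tested. Probe sets near background limit the calls for Psmb8, Psmb9, Psma8 and Psmb11.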
